A study of Mus musculus with 8 samples.

Results

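Imprinted genes were examined in RNA-seq of the dorsal cortex of mouse embryos labelled as wild type or as knockout for the receptor tyrosine kinase ErbB4. The set comprised 10 genes, Igf2, H19, Peg3, Meg3, Dlk1, Cdkn1c, Ndn, Peg10, Plagl1 and Grb10. These were taken by symbol from the 23284 symbols in the count tables. Their values were not used for the choice, but earlier results of these data were known when it was made. All 10 symbols were found, and all 10 were among the 14696 genes that passed the filter on low counts.

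The embryos were C57BL/6 mice at E15.5. Of the 8 libraries, 4 were labelled wild type (ErbB4+/+) and 4 were labelled ErbB4 knockout (ErbB4-/-). The ErbB4-/- line lacks the receptor in all tissues but the heart, where a transgene driven by the α-MHC promoter supplies it, because loss of ErbB4 in the heart is lethal to the embryo. Both lines were bred as homozygous colonies, so genotype and colony cannot be told apart, and the labels do not give litters. Meninges and ganglionic eminences had been dissected away, and polyA RNA was sequenced without keeping the strand. The counts do not separate the maternal from the paternal allele, so every value below is the sum of both.

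Imprinted genes are transcribed mainly from the allele inherited from 1 parent, according to DNA methylation that was set in the egg or the sperm at an imprinting control region. Many of them lie in clusters, and many act on the growth of the embryo, with several paternally expressed genes promoting growth and several maternally expressed genes restraining it. In the developing brain they act on the proliferation of progenitors, on neuronal migration and on the exit from the cell cycle, and Grb10 and Ndn are examples of genes that are transcribed in neurons.

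The best known of these control regions lies upstream of H19, between H19 and Igf2. There the insulator protein CTCF binds the unmethylated maternal copy and keeps distal enhancers from Igf2, so that H19 is maternal and Igf2 is paternal. The core CTCF motif of this region, 14 bases long with 3 positions left free and searched on both strands, was found 4 times in the 72624 nucleotides between the genes, and all 4 matches were on the minus strand, upstream of H19. The motif occurred 55 times on the whole of chromosome 7 and in 0.12% of RefSeq promoter windows. The matches are shown in mm9 with the motif in capitals, because they mark the element that H19 and Igf2 share. They lay at chr7:149767939-149767952, chr7:149767695-149767708, chr7:149766669-149766682 and chr7:149766214-149766227, which is 3891, 3647, 2621 and 2166 nucleotides upstream of the start of H19 in an intergenic region.
site 1: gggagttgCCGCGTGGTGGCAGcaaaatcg
site 2: cagggttgCCGCACGGCGGCAGtgaagtct
site 3: ggatgctaCCGCGCGGTGGCAGcatactcc
site 4: agacgatgCCGCGTGGTGGCAGtacaatac

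Peg3 has an element of the same kind. A motif of 11 bases that is bound by the zinc finger protein YY1 was found 7 times in Peg3, each time on the strand of the gene, against 255 times on chromosome 7 by a search of both strands and in 0.129% of RefSeq promoter windows. All 7 matches lay in the intron that follows the first exon (chr7:6679286-6682968, mm9, minus strand), which is annotated in 4 of 5 transcripts. The motif, with no position left free, is in capitals. The repeats at chr7:6682300-6682310, chr7:6681162-6681172 and chr7:6680012-6680022 are shown as examples of their shared core and differing flanks, 822, 1960 and 3110 nucleotides from the start of Peg3.
repeat 1: acccagttGGCGCCATCTTggagggtg
repeat 4: cccaatttGGCGCCATCTTtgccagca
repeat 7: ccttcattGGCGCCATCTTtgttggcc

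RefSeq promoter windows of 300 nucleotides were matched for 7 of the 10 genes, with 12 windows in all. These windows are from GRCm38.p6, and each was placed by an exact match in mm9. The motif GGGGCCCC, which is its own reverse complement and holds the core recognised by zinc finger proteins of the PLAG family to which Plagl1 belongs, was present in 1 of the 12 windows, that of Peg3, and in 1.07% of all promoter windows. The Peg3 window (chr7:6683081-6683380, mm9, minus strand) is shown with this motif in capitals. The number of CG dinucleotides per window was from 1 to 45 over the 12 windows, with a median of 7.0 over all promoter windows.
Peg3 promoter: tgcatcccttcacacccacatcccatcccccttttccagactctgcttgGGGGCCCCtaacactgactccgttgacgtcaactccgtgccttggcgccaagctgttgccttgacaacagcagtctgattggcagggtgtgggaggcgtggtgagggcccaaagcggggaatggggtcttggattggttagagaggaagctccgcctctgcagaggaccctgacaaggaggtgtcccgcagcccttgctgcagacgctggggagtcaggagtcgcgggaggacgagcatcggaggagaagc

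H19 is also the precursor of a microRNA. The hairpin of miR-675 lies at chr7:149762969-149763052 (mm9, minus strand), within an exon in 2 of the 5 annotated transcripts of H19. The mature RefSeq sequences are shown with the seed, bases 2 to 8, in capitals, because the seeds of the 2 arms differ.
miR-675-5p: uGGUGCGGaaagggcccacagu
miR-675-3p: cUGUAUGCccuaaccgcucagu
The hairpins of miR-675, miR-483 in Igf2 and miR-770 in Meg3 were each listed at 0 reads in every library. As a sampling result, 0 reads allow up to 3 counts per library. The counting mode is not given, however, and reads that overlap both a host gene and a hairpin may have been left out by it. These 0 values therefore do not show that the hairpins were not transcribed. PolyA libraries of this kind are also not made to capture mature microRNAs.

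The libraries held between 28205703 and 48871480 counts and differed in ways that the labels do not give. Erbb4 itself did not mark the groups, with 8.99, 19.9, 25.3 and 19.2 CPM in the libraries labelled ErbB4+/+ and 20.9, 24.6, 20.7 and 23.5 CPM in those labelled ErbB4-/- (log2 fold change 0.28, adjusted p = 0.812 by edgeR). Counts per gene sum the reads of all exons, so they do not show whether the reads come from an intact or a disrupted transcript. The labels were used as given, and every direction below is that of the libraries labelled ErbB4-/- against those labelled ErbB4+/+. Xist, which is transcribed in females, was between 983 and 1687 CPM in ErbB4+/+ replicates 1, 2 and 3 and between 2.70 and 3.82 CPM in the other 5 libraries, so sex and label were largely the same split. ErbB4+/+ replicate 1 stood apart in how its deviation from the mean of the other 7 libraries correlated with transcript length. This correlation was -0.579 (Spearman, across 14392 genes), against 0.037 to 0.223 in the others, whose reference means each included ErbB4+/+ replicate 1. ErbB4-/- replicate 3 held 641 CPM summed over 10 choroid plexus markers, against 4.39 to 16.8 CPM in the other 7 libraries. Cortical neuron markers summed to 2762 to 3131 and 2690 to 3057 CPM in the 2 groups. Erythroid markers, a list of 11 with 5 tested and 0 called, summed to 33.2 to 58.1 CPM in the ErbB4+/+ libraries. In the ErbB4-/- libraries their sums were 23.2 to 36.7 CPM. Of the 5 tested, 2 passed an unadjusted p under 0.05 by edgeR, both lower, against a share of 2.52% lower over all genes. They were the embryonic globin genes Hbb-y (log2 fold change -1.72) and Hba-x (-1.23), while Alas2 (0.21) and Slc4a1 (0.11) were above 0. The globin genes Hba-a1, Hba-a2 and Hbb-b2 were at 0 in every library, so the sums do not measure the amount of blood.

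None of the 10 imprinted genes passed the test for a difference between the groups. By edgeR's quasi-likelihood test at an adjusted p of 0.05, 0 of 10 were called, against 4 of 14696 genes (0.0272%) over the whole table, 1 of them higher and 3 lower. By DESeq2 and by limma-voom 0 of 10 were called as well. At an unadjusted p under 0.05, again 0 of 10 passed by each of the 3 tools, against 5.53% of all genes by edgeR. In 0 of 10 did the libraries of the groups lie on separate sides, against 3.34% of all genes. The log2 fold change was above 0 for 3 of the 10 (Igf2, Peg3 and Meg3) and below 0 for 7, against 50.8% below 0 over all genes, and its median was -0.057 against -0.0022 over all genes tested. The split of 3 and 7 rested on single libraries, since it was 1 above and 9 below without ErbB4+/+ replicate 1, and 5 and 5 when ErbB4+/+ replicate 2 or ErbB4-/- replicate 3 was left out or when Xist was a covariate. Adjusted p-values by edgeR were from 0.810 to 0.975, and exact two-sided permutation p-values were from 0.2 to 0.971, where 0.0286 is the smallest that 4 against 4 libraries allow. A p-value that misses the threshold does not show that the groups are equal, so the intervals of the differences are given with the genes. In these bulk samples, fewer cells of a type and less RNA per cell cannot be told apart.

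**Figure D1:**
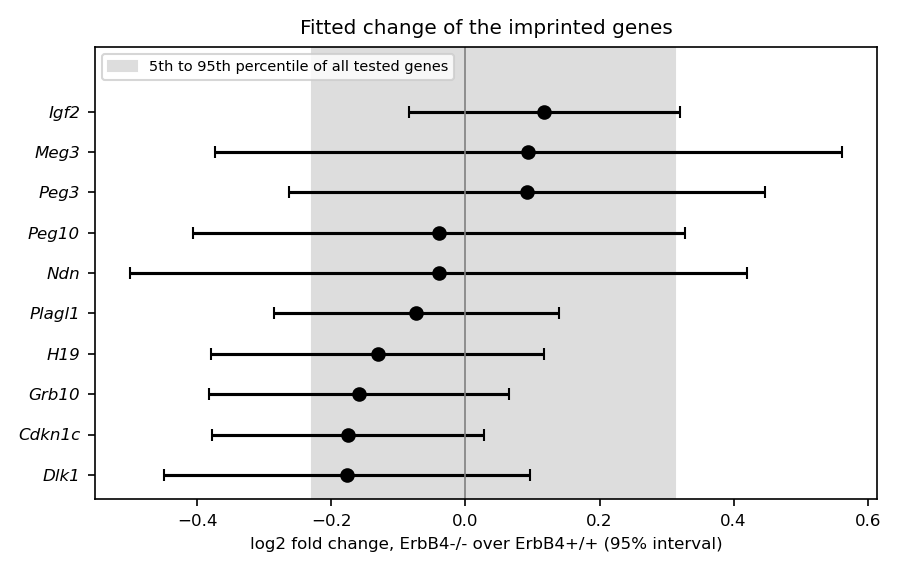
Log2 fold change of the libraries labelled ErbB4-/- against those labelled ErbB4+/+ for the 10 imprinted genes (points, edgeR) with 95% confidence intervals (bars). The shaded band is the central 90% of the fold changes of all genes tested, from -0.229 to 0.312, and every one of the 10 intervals crosses 0.

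Igf2 encodes insulin-like growth factor 2, a growth factor of the embryo that signals through the Igf1 and insulin receptors, and lies at chr7:149836673-149852721 (mm9, minus strand). Its level was 53.5, 55.8, 53.9 and 59.9 CPM in the ErbB4+/+ libraries and 55.8, 56.2, 73.7 and 56.4 CPM in the ErbB4-/- libraries. Of the 8 values 7 lay within 53.5 to 59.9 CPM, and ErbB4-/- replicate 3 lay above them. The means were 55.8 ± 2.94 and 60.5 ± 8.79 CPM (SD, n = 4 each), with a log2 fold change of 0.12 (95% interval -0.085 to 0.32, adjusted p = 0.811 by edgeR). With ErbB4-/- replicate 3 left out this estimate was 0.0086, and with Xist as a covariate it was 0.013. In that library Ttr, the transthyretin gene that choroid plexus transcribes at a very high level, was at 572 CPM against 0.571 to 8.76 CPM elsewhere, and the 10 choroid plexus markers, of which 7 were tested, all 7 with an estimate above 0 and 0 called, summed to 641 CPM. Meningeal fibroblast markers, a list of 12 with 9 tested and 0 called, summed to 16.6 to 22.5 CPM in the ErbB4+/+ libraries and 18.3 to 32.9 CPM in the ErbB4-/- libraries, with the highest sum in replicate 3 too. Both tissues are known to transcribe Igf2 in the embryo, and their part in the Igf2 values was not tested.

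**Figure D2:**
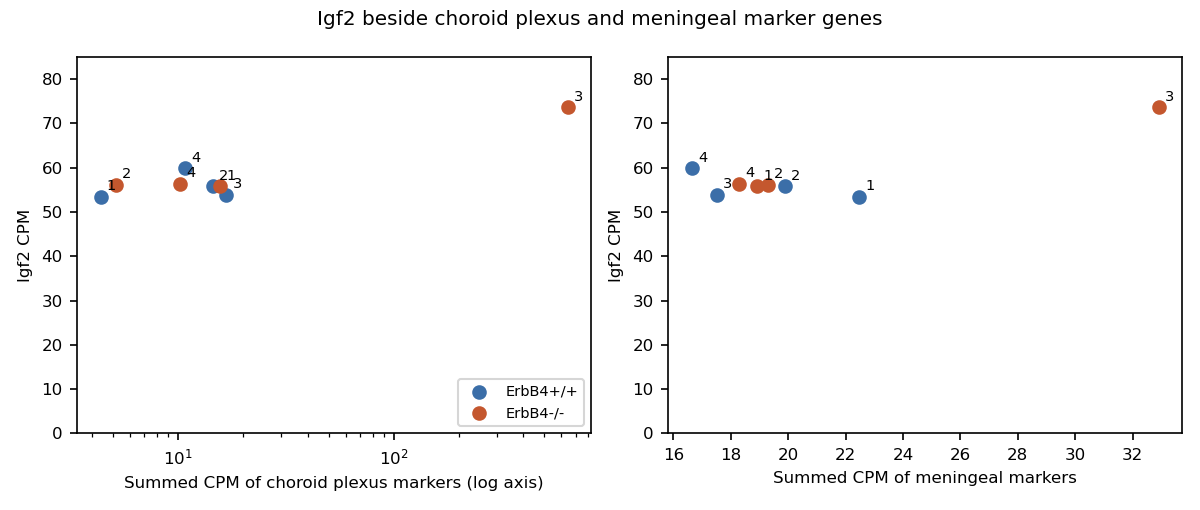
Igf2 CPM of each of the 8 libraries against the summed CPM of choroid plexus markers (log axis) and of meningeal markers (linear axis). ErbB4-/- replicate 3 is highest on all 3 measures, with 73.7 CPM for Igf2, 641 for choroid plexus markers and 32.9 for meningeal markers.

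H19 is a non-coding RNA expressed from the maternal allele, which restrains growth, and lies at chr7:149761434-149764048 (mm9, minus strand). Its level was 88.6, 59.4, 74.5 and 70.9 CPM in the ErbB4+/+ libraries and 66.4, 62.0, 61.6 and 77.8 CPM in the ErbB4-/- libraries. The ErbB4+/+ libraries held both the highest and the lowest value, and all ErbB4-/- values fell between them. The means were 73.4 ± 12.1 and 67.0 ± 7.56 CPM, and the difference was -0.13 on the log2 scale (SE 0.11, adjusted p = 0.823 by edgeR). This difference was -0.029 when ErbB4+/+ replicate 1 was left out and -0.22 when ErbB4+/+ replicate 2 was left out. The ratio of Igf2 to H19 CPM, with no correction for transcript length, was 0.603, 0.939, 0.724 and 0.845 in the ErbB4+/+ libraries and 0.840, 0.905, 1.20 and 0.725 in the ErbB4-/- libraries, so that the groups overlapped. An annotated antisense gene over Igf2, Igf2as, held 136 reads over all 8 libraries, against 1499 to 2877 for Igf2 in each, and without strand the reads of the 2 genes cannot be told apart where they overlap.

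Dlk1 and Meg3 form a second pair of opposite parental origin on chromosome 12. Dlk1 encodes a transmembrane protein related to the Notch ligands and is expressed from the paternal allele (chr12:110691033-110701546, mm9, plus strand). It was the lowest of the 10 genes, with 15.1, 19.5, 17.0 and 19.7 CPM in the ErbB4+/+ libraries and 17.2, 14.4, 13 and 18.4 CPM in the ErbB4-/- libraries. The groups overlapped over most of their range, and the log2 fold change was -0.18 (SE 0.12, adjusted p = 0.810 by edgeR). Meg3, a maternal long non-coding RNA (chr12:110779211-110809936, mm9, plus strand), had the largest within-group SD of log2 CPM of the 10 genes (0.41). It was at 296, 561, 345 and 411 CPM in the ErbB4+/+ libraries and at 530, 540, 303 and 349 CPM in the ErbB4-/- libraries. Each group held values near its low of 296 or 303 CPM and values up to 561 or 540 CPM, and the means of 403 ± 115 and 430 ± 122 CPM differed by less than the spread within either group (log2 fold change 0.09, SE 0.21, adjusted p = 0.929 by edgeR). The sign of this estimate was not stable, with -0.03 when ErbB4+/+ replicate 1, ErbB4-/- replicate 2 or the length trend was removed and -0.02 when ErbB4-/- replicate 1 was. Rian, the maternal non-coding RNA next to Meg3 that hosts small nucleolar RNAs, varied less, from 204 to 262 CPM over the 8 libraries, with a log2 fold change of 0.09 (SE 0.086). The remaining listed genes of this cluster had log2 fold changes of -0.18 for Mirg, 0.18 for Dio3 and 0.02 for Rtl1, and 0 of the 6 genes of the cluster were called.

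Cdkn1c encodes p57, a cyclin-dependent kinase inhibitor that promotes cell cycle exit of cortical progenitors and is expressed from the maternal allele (chr7:150644255-150646955, mm9, minus strand). It had the smallest p-value of the 10 genes. Its level was 117, 95.4, 80.5 and 99.5 CPM in the ErbB4+/+ libraries and 86.2, 84.6, 89.7 and 86.5 CPM in the ErbB4-/- libraries. ErbB4+/+ replicate 3 was the lowest of all 8 and the other 3 ErbB4+/+ libraries were above every ErbB4-/- library. The means were 98.0 ± 14.9 and 86.7 ± 2.13 CPM, and the log2 fold change of -0.18 (SE 0.093) did not pass (unadjusted p = 0.0839 and adjusted p = 0.810 by edgeR). It was -0.08 when ErbB4+/+ replicate 1, the library with the length trend, was left out.
In the wider list of cell cycle inhibitors, cyclins and their kinases, 0 of 12 genes were called, 11 of the 12 estimates were below 0, and the median was -0.12 against -0.0022 over all genes. The 2 that passed an unadjusted p under 0.05, against a share of 2.52% lower at that level over all genes, were Ccnd1 (cyclin D1) and Ccne1 (cyclin E1). Ccnd1 was at 87.4, 85.1, 83.4 and 87.2 CPM in the ErbB4+/+ libraries and at 72.3, 70.5, 68.2 and 84.2 CPM in the ErbB4-/- libraries. ErbB4-/- replicate 4 overlapped the ErbB4+/+ range and the other 3 lay below it, and the adjusted p was 0.810 by edgeR (log2 fold change -0.22, SE 0.069). Cdkn1a (p21) and Cdkn1b (p27), the non-imprinted relatives of Cdkn1c, had log2 fold changes of -0.03 (SE 0.10) and -0.04 (SE 0.062). Cortical progenitor markers had 9 of 9 estimates below 0, with 2 at an unadjusted p under 0.05 and 0 called, and their sums were 1600 to 1744 CPM in the ErbB4+/+ libraries and 1531 to 1717 CPM in the ErbB4-/- libraries. Their part in the values of the cell cycle genes was not tested.

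**Figure D3:**
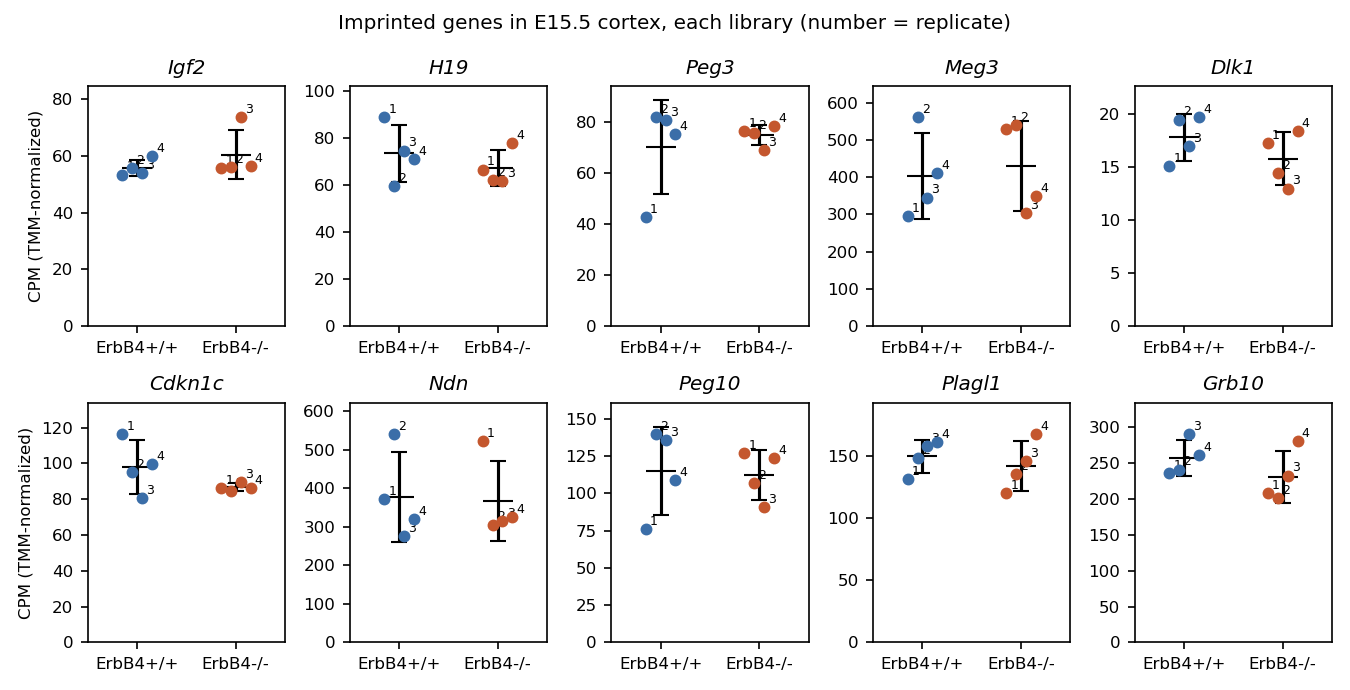
CPM of the 10 imprinted genes in each library, with 1 point for each of the 4 ErbB4+/+ and 4 ErbB4-/- libraries, a line at the group mean and bars of 1 SD. The points of the 2 groups overlap in all 10 genes, and Meg3, Ndn, Peg3 and Peg10 show the widest scatter on a log2 scale.

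Ndn encodes necdin, a protein of the MAGE family that is expressed from the paternal allele in neurons, and is a gene of a single exon (chr7:69493163-69494814, mm9, plus strand) in the cluster of Snrpn. Its level was 371, 541, 276 and 321 CPM in the ErbB4+/+ libraries and 522, 306, 314 and 325 CPM in the ErbB4-/- libraries. In each group 1 library, ErbB4+/+ replicate 2 and ErbB4-/- replicate 1, was at or above 522 CPM and the other 6 were between 276 and 371 CPM. The estimate was -0.04 (SE 0.21, adjusted p = 0.975 by edgeR), the largest adjusted p of the 10 genes. Leaving out the high ErbB4-/- library gave -0.26, and leaving out the high ErbB4+/+ library gave 0.19. Mkrn3, Peg12, Snrpn and Ube3a, other imprinted genes of this cluster, had log2 fold changes of -0.06, -0.16, -0.02 and 0.11, with none called. Magel2, a MAGE gene next to Ndn that is also paternally expressed, was at 19.3, 26.9, 21.5 and 25.3 CPM in the ErbB4+/+ libraries and at 19.8, 19.2, 15.4 and 20.1 CPM in the ErbB4-/- libraries. The ranges overlapped between 19.3 and 20.1 CPM, and the log2 fold change was -0.32 (SE 0.12). By edgeR's quasi-likelihood test Magel2 passed an unadjusted p under 0.05 but not the adjustment (unadjusted p = 0.0205, adjusted p = 0.810). Among 7 genes of the MAGE family 6 estimates were below 0 and 0 were called.

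Peg3 and Peg10 are both expressed from the paternal allele. Peg3 encodes a large zinc finger protein (chr7:6656603-6683132, mm9, minus strand), and Peg10 (chr6:4697306-4710514, mm9, plus strand) derives from a retrotransposon and is needed for the placenta. Peg3 was at 42.6, 81.7, 80.6 and 75.3 CPM in the ErbB4+/+ libraries and at 76.2, 75.6, 69.0 and 78.3 CPM in the ErbB4-/- libraries. ErbB4+/+ replicate 1 was far below the other 7, which lay between 69.0 and 81.7 CPM. The log2 fold change was 0.09 (SE 0.16, adjusted p = 0.902 by edgeR), and without that library it was -0.08. Peg10 was at 76.2, 140, 136 and 109 CPM in the ErbB4+/+ libraries and at 127, 107, 90.9 and 124 CPM in the ErbB4-/- libraries, again with its lowest value in ErbB4+/+ replicate 1. The difference between the groups was -0.04 on the log2 scale (SE 0.17, adjusted p = 0.966 by edgeR). It was -0.19 when ErbB4+/+ replicate 1 was left out, and above 0 when ErbB4+/+ replicate 2 (0.07), ErbB4+/+ replicate 3 (0.05) or ErbB4-/- replicate 3 (0.05) was left out or Xist was a covariate (0.085). ErbB4+/+ replicate 1 was also the library with the transcript length trend of -0.579, and the part of this trend in both values was not tested. With the length trend of each library removed, the log2 fold change was 0.033 for Peg3 and -0.081 for Peg10.
Next to Peg3, the log2 fold changes were 0.09 for Usp29 and 0.25 for Zim1. Usp29 was from 36.2 to 42.9 CPM over all 8 libraries, and ErbB4+/+ replicate 1, at 36.6 CPM, was not apart from the others, whereas Zim1 was lowest in that library, at 3.39 CPM against 4.69 to 6.91 CPM in the other 7. Next to Peg10, Sgce was from 21.9 to 26.4 CPM and Casd1 from 77.7 to 86.7 CPM, while Asb4 was at 7.81, 14.6, 13.6 and 8.77 CPM in the ErbB4+/+ libraries and at 14.3, 9.82, 6.38 and 9.31 CPM in the ErbB4-/- libraries. Of the 8 tested genes of the Peg10 cluster 0 were called.

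Of the 45 pairs among the 10 genes, Peg3 and Peg10 had the highest correlation of log2 CPM over the 8 libraries. Pearson's r was 0.87 (exact permutation p = 0.000149, adjusted over 45 pairs 0.0067), and Spearman's rho was 0.952 (exact permutation p = 0.00114, adjusted 0.0513). Without the 2 libraries farthest from the median of Peg3, ErbB4+/+ replicate 1 and ErbB4-/- replicate 3, r was 0.891. It was 0.956 within the ErbB4+/+ libraries and 0.913 within the ErbB4-/- libraries, with n = 4 in each, and 0.813 after the length trend of each library had been removed. The points share their libraries, and high correlations with these genes were common in the table. In all, 965 of 11330 genes (8.52%) had a higher r with Peg3 than Peg10 had, while 64 (0.565%) had a higher r with Peg10 than Peg3 had. With the length trend removed, the number for Peg3 was 411.

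**Figure D4:**
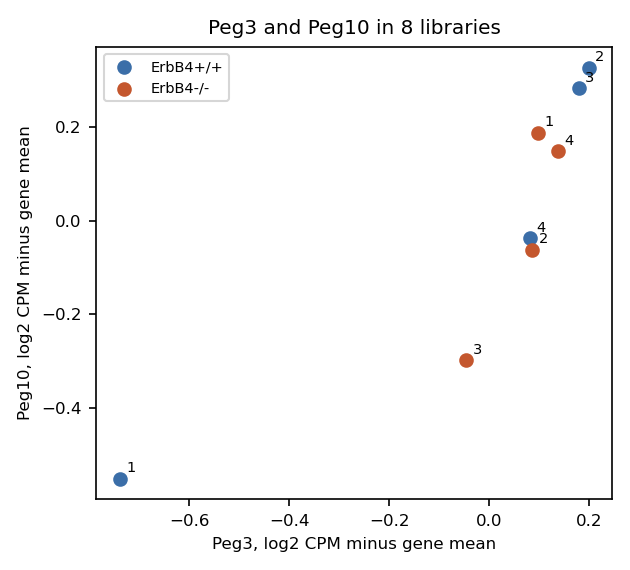
Log2 CPM minus the gene mean of Peg10 against the same measure of Peg3 in the 8 libraries, labelled by group and replicate. The points follow a common line in both groups (r = 0.87 over all 8), with ErbB4+/+ replicate 1 lowest for both genes.

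Plagl1 and Grb10 made up the next pair. Plagl1 encodes a zinc finger transcription factor that restrains proliferation and acts on other imprinted genes (chr10:12810497-12851500, mm9, plus strand). It was at 131, 148, 158 and 161 CPM in the ErbB4+/+ libraries and at 120, 135, 146 and 168 CPM in the ErbB4-/- libraries, so that the ErbB4-/- libraries held both extremes (log2 fold change -0.07, SE 0.097, adjusted p = 0.866 by edgeR). The Plagl1 estimate was 0.00026 without ErbB4-/- replicate 1, -0.17 without ErbB4-/- replicate 4 and -0.16 with Xist as a covariate. Grb10 encodes an adaptor that inhibits signalling by the insulin and Igf1 receptors (chr11:11830511-11938686, mm9, minus strand), and is expressed from the paternal allele in neurons and the maternal allele elsewhere. It was at 236, 241, 291 and 262 CPM in the ErbB4+/+ libraries and at 208, 201, 233 and 281 CPM in the ErbB4-/- libraries. ErbB4-/- replicate 4 was within the ErbB4+/+ range and the other 3 were below it, and the difference was -0.16 on the log2 scale (SE 0.10, adjusted p = 0.810 by edgeR). Their log2 CPM correlated with r = 0.848 and rho = 0.81, which did not pass after adjustment over the 45 pairs (exact permutation, adjusted p = 0.2 for r). Without the 2 libraries farthest from the median of Plagl1, ErbB4-/- replicates 1 and 4, r was 0.77, and it was 0.746 and 0.896 within the ErbB4+/+ and ErbB4-/- libraries. Of 11330 genes, 127 (1.12%) had a higher r with Plagl1 than Grb10 had, and 226 (1.99%) had a higher r with Grb10 than Plagl1 had. The other PLAG genes, Plag1 and Plagl2, had log2 fold changes of -0.21 (SE 0.16) and -0.12 (SE 0.092), and 0 of the 3 family members were called.

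The IGF system, in which Igf2, Grb10 and their partners act, was not called in any of its tested genes either. Of 20 listed genes 17 were tested, with 9 estimates above 0 and 8 below and a median of 0.048. The intervals of the receptors all held 0, with log2 fold changes of 0.05 (95% interval -0.14 to 0.23) for Igf1r, 0.06 (-0.10 to 0.23) for Insr and 0.05 (-0.18 to 0.28) for Igf2r, the imprinted receptor that clears Igf2. Of the binding proteins, Igfbp3 was at 53.0, 47.6, 43.8 and 49.1 CPM in the ErbB4+/+ libraries and at 57.5, 69.8, 64.7 and 52.1 CPM in the ErbB4-/- libraries, with only 52.1 CPM reaching into the other group (log2 fold change 0.34, SE 0.093, unadjusted p = 0.0039 and adjusted p = 0.810 by edgeR). Igfbp4 was at 104, 84.1, 84.0 and 83.9 CPM against 77.3, 81.0, 77.5 and 80.3 CPM. Its groups did not overlap, as in 3.34% of all genes, and it did not pass the adjustment (log2 fold change -0.17, SE 0.074, adjusted p = 0.810 by edgeR). Igf2bp2, which binds Igf2 mRNA, had a log2 fold change of -0.21 (SE 0.092, unadjusted p = 0.0443 by edgeR). Pericyte markers, of which 7 of 8 estimates were above 0 and 0 were called, summed to 90.8 to 112 CPM and 98.5 to 119 CPM, and endothelial markers to 178 to 185 CPM and 180 to 192 CPM, and their part in the Igfbp3 values was not tested. Of 7 genes of Dlk1 and Notch signalling 6 estimates were below 0 and 0 were called, with the Notch target Hes1 at a log2 fold change of -0.24 (SE 0.091, unadjusted p = 0.0208 by edgeR).

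The same held for imprinted genes beyond the 10. Of 65 further imprinted genes listed, 62 were in the count tables, 54 passed the filter and 0 were called, with 27 estimates above 0 and 27 below, and a median of 0.00064. At an unadjusted p under 0.05 by edgeR, 1 of the 54 passed (Magel2), against 5.53% of all genes, so this count is no result about imprinted genes. The estimates farthest from 0 belonged to genes with few reads, apart from Magel2. They were 0.42 (SE 0.32) for Kcnk9, 0.37 (SE 0.34) for Slc22a3, 0.32 (SE 0.32) for Pon3 and -0.39 (SE 0.41) for Calcr, all at or below 1.92 CPM in every library. Kcnq1ot1, the paternal non-coding RNA that controls the cluster of Cdkn1c, was at 3.99 to 6.07 CPM and 4.97 to 7.53 CPM in the 2 groups, with a log2 fold change of 0.24 (SE 0.17). Nnat (neuronatin), a paternally expressed gene of developing neurons, was between 2268 and 3060.5 CPM, and the difference was -0.15 on the log2 scale (SE 0.081, adjusted p = 0.810 by edgeR).

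To compare levels between genes, the mean CPM over the 8 libraries was divided by the length of the longest annotated transcript. On this scale Ndn was highest, at 225 CPM per kb, and lay above all other members in every library. Grb10 (48.2) and Cdkn1c (47.8) followed and their ranges overlapped. H19 (30.7), Meg3 (28.7) and Plagl1 (27.7) came next, and each overlapped its neighbour in this order. Peg10 (17.1) overlapped Igf2 (12.3), and Peg3 (8.33) and Dlk1 (3.61) each lay below the one before in every library. When the union of exons was used as the length, Grb10 moved from rank 2 to rank 4, behind Cdkn1c and H19, and the other ranks from 5 to 10 were as before.

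The 10 genes varied between libraries of the same group. The within-group SD of log2 CPM was 0.15 for Igf2, 0.16 for Cdkn1c, 0.17 for Plagl1, 0.18 for Grb10, 0.20 for H19 and 0.21 for Dlk1, and 0.32 for Peg3, 0.33 for Peg10, 0.39 for Ndn and 0.41 for Meg3. The median over all genes tested was 0.14. Among genes of similar level, within 0.5 on the log2 scale, between 78.2% (Igf2) and 99.9% (Peg10) had a smaller SD than the member. Ganglionic eminence markers, a list of 10 with 0 called, summed to 548, 680, 660 and 505 CPM in the ErbB4+/+ libraries and to 691, 607, 492 and 585 CPM in the ErbB4-/- libraries. The 2 highest sums were in the 2 libraries with the highest Ndn, while ErbB4+/+ replicate 3, with the next highest sum, had the lowest Ndn. These sums do not tell eminence tissue left after dissection from interneurons within the cortex, and the part of either in the Ndn values was not tested. Hypothalamus and thalamus markers, 7 of 8 tested and 0 called, summed to 32.0 to 52.3 CPM and 36.2 to 41.7 CPM.

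**Figure D5:**
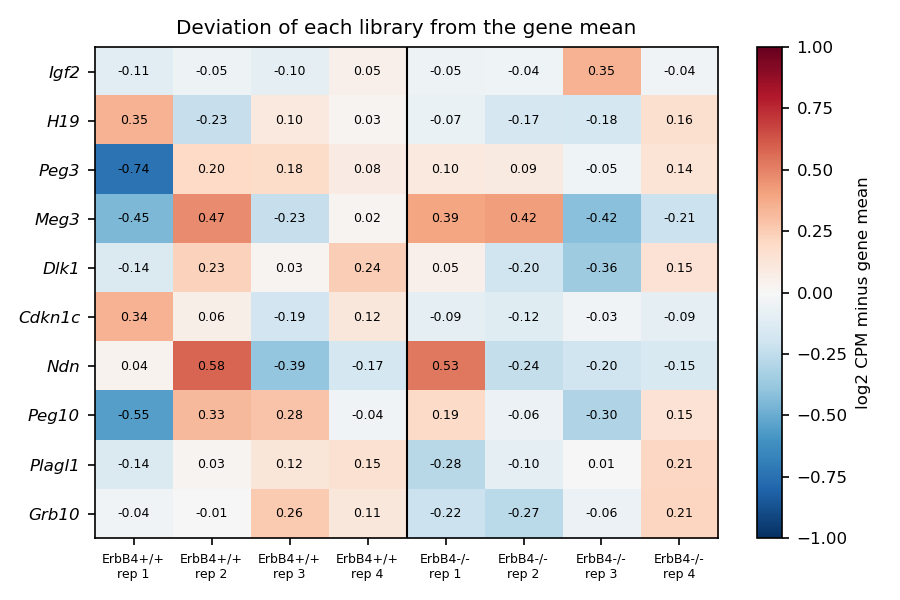
Deviation of each of the 10 imprinted genes (rows) from its mean over the 8 libraries (columns), as log2 CPM. Peg3 and Peg10 are lowest in ErbB4+/+ replicate 1, Ndn is highest in ErbB4+/+ replicate 2 and ErbB4-/- replicate 1, and Igf2 is highest in ErbB4-/- replicate 3.

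The genes whose log2 CPM followed each member most closely over the 8 libraries were found among 11330 genes with a mean of at least 5 CPM. These values are descriptions, with no test, over the same 8 libraries for every gene. For Meg3 the closest were Snhg11 (r = 0.991), a non-coding RNA of neurons, then Tmem132e and Slc4a3. For H19 they were Mcm7 (r = 0.977), a subunit of the replicative helicase, then Th1l and B230208H17Rik. For Peg3 they were Zfp169 (r = 0.994), Nktr and Prdm2, and for Peg10 they were Ddx26b (r = 0.969), Slc25a24 and Zfp619. For Plagl1 they were Sema5a (r = 0.979), Cdon and Anln, and for Grb10 they were Zfp664 (r = 0.974), Yap1 and Skp2. For Ndn they were Prrt3 (r = 0.958), Camk2d and Slc32a1, the vesicular GABA transporter gene. For Cdkn1c they were Slc25a29 (r = 0.983), Exosc4 and Abhd8, and for Dlk1 they were Dennd1c (r = 0.966), Unk and Ppp1r10. Igf2 had the weakest closest match, Narf (r = 0.903), followed by Zfp395 and 1110067D22Rik.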

How the data were processed

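RNA-seq of dorsal cortex gave 8 libraries, 4 per label. Per the labels and methods, single-end reads were aligned by HISAT to the mm9 genome, and HTSeq-count gave the number of reads of each gene. The deposited files hold raw counts per gene symbol, with no normalization. The gene annotation and the counting mode are not given in the sources used here. A deposited DESeq2 table holds the authors' own comparison (fold changes and p-values) and was not used.

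Groups were taken from the labels. The test was the quasi-likelihood F test of edgeR 4.0.16 (R 4.3.3) after TMM normalization. Low genes were removed by filterByExpr, set to 10 counts and 15 in total. Adjusted p-values are Benjamini-Hochberg values over 14696 genes, called at 0.05. Per-library values are CPM after TMM normalization, and log2 CPM has a prior count of 2. The SE of a log2 fold change was derived from the F statistic. Exact two-sided permutation tests of single genes ran over all 70 assignments of the libraries. Nothing states that the libraries came from separate litters, so p-values measure the spread between these samples. Depth was 28205703 to 48871480 counts per library, the common biological coefficient of variation was 10.7%, and floors and intervals of single counts cover counting error only.

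The 10 genes and all lists were chosen with earlier results of these data known. The genes named are the 10 members, some of the tested genes of their clusters and some genes of the partner lists. Also named are the 3 highest and 3 lowest estimates among further imprinted genes, Erbb4 and Xist, and the 3 genes most correlated with each member. Tested cluster genes that are not named, such as Ppp1r9a (log2 fold change 0.17, SE 0.088 by edgeR), were not called. Igf2as, Ttr and Nnat were singled out after their values were seen. Positions and transcript lengths came from GENCODE vM1 on NCBIM37 (mm9), and promoter and mature microRNA sequences from RefSeq (GRCm38.p6).

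Alternatives were DESeq2 1.42.0, limma-voom (limma 3.58.1), relative log expression size factors, all genes unfiltered, genes averaging 50 counts or more, a prior count of 0.5, a replicate block, an Xist covariate, the removal of each library's length trend, and each library left out. Leaving out ErbB4+/+ replicate 1 and ErbB4-/- replicate 3 together was added after seeing the data. The steps were tested on simulated data.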

Additional observations from a re-analysis of the deposited data

Results flagged for a closer look

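In 5 of 38 groups of 4 libraries that were checked, the most extreme library was separated from its nearest neighbour by more than Dixon's 95% critical value allows for the share of the group's whole range, and chance alone gives about 1 in 20 such groups. Igf2 was one of them, with ErbB4-/- replicate 3 at 73.7 CPM against 55.8 to 56.4 CPM in the other 3 (gap 0.965 of the range). The same library held the highest sum of choroid plexus markers (0.983) and of meningeal markers (0.931). Peg3 in ErbB4+/+ replicate 1 was at 42.6 CPM against 75.3 to 81.7 CPM (0.836). Ndn in ErbB4-/- replicate 1 was at 522 CPM against 306 to 325 CPM (0.911).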

How the results depend on the processing

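None of the 10 imprinted genes was called under any alternative run. Over all genes, 4 were called as reported, 24 by DESeq2 (13 higher and 11 lower), 1 with relative log expression size factors (1 higher and 0 lower, against 1 and 3 as reported), 1 with the replicate block, 1 with Xist as a covariate and 2 with the length trend removed. Leaving out each library in turn gave 1 to 13 calls: 6 and 13 without ErbB4+/+ replicates 1 and 4, 2 when ErbB4+/+ replicate 2 or ErbB4-/- replicate 4 was left out, and 1 for each of the other 4 libraries. Same-numbered libraries deviated together with correlations of 0.0236 to 0.135 over the 4 numbers. Of the ErbB4+/+ libraries 2 of 4, and of the ErbB4-/- libraries 3 of 4, correlated best with their own number. These values do not settle whether the numbers mark pairs. The labels do not say that they do, and the numbers entered only the replicate block, not the fit as reported.

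The sign or size of some estimates depended on the setting, and the cause was not tested. With Xist as a covariate the log2 fold change was 0.17 for Ndn and 0.085 for Peg10, both below 0 as reported. In that fit Igf2 went from 0.12 to 0.013, Peg3 from 0.092 to 0.037, Dlk1 from -0.18 to -0.31 and Plagl1 from -0.074 to -0.16. With the length trend removed it was -0.027 for Meg3, 0.0095 for Ndn, 0.033 for Peg3, -0.081 for Peg10 and -0.11 for Plagl1. Leaving out each library in turn gave 0.0086 to 0.16 for Igf2, -0.22 to -0.029 for H19, -0.083 to 0.17 for Peg3, -0.034 to 0.30 for Meg3, -0.26 to 0.19 for Ndn, -0.19 to 0.067 for Peg10, -0.17 to 0.00026 for Plagl1, -0.26 to -0.093 for Dlk1, -0.26 to -0.081 for Cdkn1c and -0.27 to -0.094 for Grb10. Without ErbB4+/+ replicate 1 and ErbB4-/- replicate 3 together it was -0.0080 for Igf2, 0.011 for H19, -0.044 for Peg3 and 0.023 for Ndn. Counts per library were at least 422 for every member. Counting error and the spread between libraries were not separated in these ranges.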
